A study of Mus musculus with 24 samples.

Results

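The genes described here are 32 genes of the oligodendrocyte lineage and of myelin, listed by name and matched by symbol to the gene identifiers of the count files. All 32 were found among 54232 listed genes, and all 32 passed the filter on low counts that kept 22502 genes for testing. They were measured by RNA-seq in the cerebellum of 24 mice aged 6 weeks, with 1 library per mouse. WT mice (n = 8) carried the unexpanded Atxn1[2Q] allele on both chromosomes, and SCA1 mice (n = 4) carried 1 knockin allele with an expanded CAG tract (Atxn1[154Q]) beside an unexpanded one. SCA1 S776A mice (n = 4) had alanine in place of the phosphorylated serine of ATXN1 on the expanded allele, S776A double mice (n = 4) had it on the expanded and the unexpanded allele, and WT S776A homozygous mice (n = 4, labelled 2q-s776a) had it on both unexpanded alleles. The alanine was made by CRISPR/Cas9, in founder lines that were backcrossed to C57BL/6J. Which line or litter each mouse came from was not given in the sources used here.

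Oligodendrocytes wrap axons in myelin, a stack of compacted membrane that speeds conduction and feeds the axon. They arise from dividing precursors that carry the PDGF receptor and the NG2 proteoglycan, pass through a committed stage, and then switch on the sheath genes under the transcription factors SOX10, OLIG1, OLIG2, NKX6-2 and MYRF. In the cerebellum they lie mainly in the white matter, where they wrap the axons of Purkinje cells, the neurons most affected in SCA1 (spinocerebellar ataxia type 1), and the fibres that enter the cerebellum.

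Between 62163600 and 88430180 fragments per library were counted on genes. The libraries fell into a batch of 16 (4 WT mice and the SCA1, SCA1 S776A and S776A double mice) and a batch of 8 (4 WT and the 4 WT S776A homozygous mice) by the way their fragments mapped, and each genotype was compared with the 4 WT mice of the same batch. The batch was inferred and is not in the labels. Atxn1, the edited gene, had log2 fold changes against WT of 0.21 in SCA1, 0.27 in SCA1 S776A, 0.29 in S776A double and 0.02 in WT S776A homozygous mice (standard error, SE, 0.08 in each). The adjusted p was 0.453, 0.87, 0.398 and 0.947 in the same order (edgeR, Benjamini-Hochberg adjustment). The counts of Atxn1 cannot tell the alleles apart.

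The members spanned a wide range of levels, given here as RPKM (fragments per kilobase of exon, scaled by library size) in the WT mice of batch 1. Mbp, which encodes the myelin basic protein that compacts the membrane, had the highest level with 385 ± 27.5 RPKM (SD, n = 4). It alone took 47.6% to 49.2% of the fragments counted on the 32 genes in these mice. The next were Cnp, which keeps channels of cytoplasm open in the sheath, with 134 ± 7.97 RPKM (SD, n = 4), and Mobp, another basic protein of compact myelin, with 123 ± 13.2 RPKM (SD, n = 4), a pair that lay within their spread. The tight junction gene Cldn11 followed with 91.0 ± 8.89 RPKM (SD, n = 4). Mal, which encodes a proteolipid of membrane rafts, had 68.2 ± 6.93 RPKM, and Mag, which encodes an adhesion molecule facing the axon, had 58.5 ± 3.97 RPKM (SD, n = 4 each). Mog, whose protein lies on the outermost surface of the sheath, had 46.1 ± 3.07 RPKM (SD, n = 4). The other sheath genes lay lower, from Tmem88b with 22.4 RPKM through Hapln2 with 17.1 RPKM and Ermn with 14.9 RPKM to Opalin with 6.31 RPKM.

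Of the genes of lipid synthesis, channels and carriers, Car2, a carbonic anhydrase, had 70.1 ± 3.31 RPKM (SD, n = 4). Fa2h and Ugt8a, which act in the synthesis of the galactolipids of myelin, had 17.7 and 16.6 RPKM. Gjb1, a gap junction connexin, had 13.9 RPKM, and Aspa, which cleaves N-acetylaspartate, had 3.31 RPKM. Among the remaining genes of mature cells, the lipocalin gene Apod had 72.2 RPKM, the actin-severing gelsolin gene Gsn 32.1, the protease gene Klk6 14.4 and the receptor gene Gpr37 10.6 RPKM.

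The transcription factors were at lower levels than the main sheath genes, with 34.8 RPKM for Olig1, 13.3 for Sox10, 7.96 for Nkx6-2, 7.80 for Olig2 and 5.72 for Myrf. Genes of the earlier stages were lower still, apart from the tetraspanin gene Tspan2 with 38.0 RPKM and Bcas1, which marks early myelinating cells, with 31.8. The committed precursor receptor Gpr17 had 4.45 RPKM, and Enpp6, of newly forming oligodendrocytes, had 2.82. The precursor genes Pdgfra and Cspg4 (NG2) had 2.29 and 0.965 RPKM. Trf (transferrin) was counted at only 152 to 400 fragments per library, and 63.5% of its exon bases are shared with the annotated gene Gm20425. Fragments that fell on both genes were left out of the counts, so its level is uncertain and can be counted too low. Bcas1 and Nkx6-2 share 12.6% and 12.9% of their exon bases with other genes, and the counts did not use strand. Over all libraries the antisense genes of Bcas1 had 630 and 144 fragments against 241344 for Bcas1. Inpp5a, on the strand opposite Nkx6-2, had 838317 against 30351 for Nkx6-2. The part of Inpp5a in the values of Nkx6-2 was not tested.

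The first comparison asked whether these genes changed in SCA1 cerebella. Relative to WT mice of batch 1, 0 of 32 members were called changed in SCA1 mice (quasi-likelihood test of edgeR, Benjamini-Hochberg adjustment over all genes tested, adjusted p under 0.01 and absolute log2 fold change over 0.5), and 0.173% of all genes were. The fitted values leaned upward, with 29 of 32 members above WT, against 50.5% of all genes, and a median log2 fold change of 0.12 against 0 over all genes. These fits ranged from -0.09 to 0.29, and 4 members had an unadjusted p under 0.05, all higher, with a background of 3.93% of all genes in that direction (8.25% in either). In bulk tissue, a change in the number of oligodendrocytes and a change in RNA per cell cannot be told apart.

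The score of a mouse, the mean log2 difference of the 32 genes from the WT mice of its batch, was 0.01, 0.25, 0.16 and 0.01 in SCA1 mice 1 to 4. In the WT mice of batch 1 it was -0.06, 0, -0.04 and 0.10. SCA1 mice 2 and 3 therefore lay above all WT mice and SCA1 mice 1 and 4 within their range. In SCA1 mouse 2, 31 of 32 members were above the WT mean, and in SCA1 mouse 3, 29 were. Without SCA1 mouse 2 the median log2 fold change was 0.04, and without WT mouse 3 it was 0.07.

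**Figure D1:**
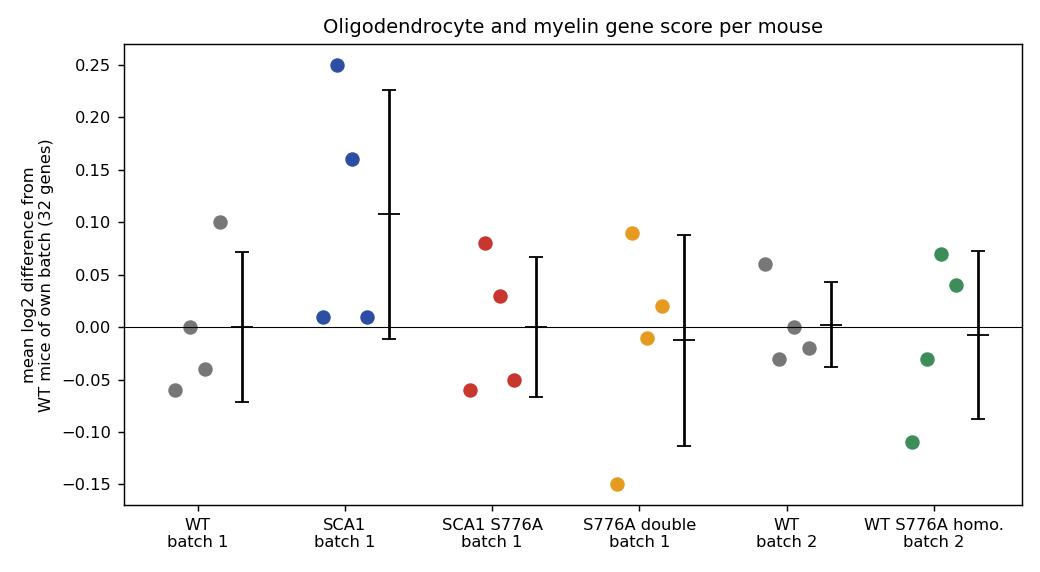
Mean log2 difference of the 32 genes from the WT mice of the same inferred batch (vertical axis) for each of 24 mice (points), grouped by genotype and batch (horizontal axis), with the group mean and SD as bars. SCA1 mice 2 and 3 sit at 0.25 and 0.16, above the WT mice of batch 1, whose highest value is 0.10. SCA1 mice 1 and 4, both at 0.01, lie within the WT range, and the other groups overlap WT.

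The 11 sheath genes were all fitted higher in SCA1, with a median log2 fold change of 0.14. Mbp stood at 3368, 4077, 3843 and 4009 CPM (counts scaled by library size, not by gene length) in SCA1 mice 1 to 4 and at 3027, 3298, 3153 and 3569 CPM in the WT mice of batch 1. SCA1 mouse 1 lay below the highest WT mouse, and the other SCA1 mice lay above all WT mice. The log2 fold change of Mbp was 0.23 (SE 0.07, unadjusted p = 0.0036, adjusted p = 0.233, edgeR, Benjamini-Hochberg adjustment), the lowest p among the members. The adjusted p depended on the tool and on the handling of the batch. At a fold change of 0.23, it was 0.0653 by DESeq2 with the batch as a covariate. It was 0.00713 by ComBat-seq followed by DESeq2, the study's route, also at 0.23. That route set SCA1 against the corrected counts of the WT mice of both batches. In edgeR, the adjusted p was 0.176 with mice of batch 1 only (fold change 0.23). It was 0.694 in edgeR with no batch covariate, where the fold change was 0.07. By ComBat-seq and DESeq2 no member was called, and the fold change of Mbp lay under the fold threshold.

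Mobp had 899, 1089, 1026 and 1094 CPM in SCA1 mice and 757, 821, 816 and 969 CPM in WT mice. Its pattern over the mice was like that of Mbp, with only SCA1 mouse 1 inside the WT range. The log2 fold change was 0.29 (SE 0.13, adjusted p = 0.571, edgeR, Benjamini-Hochberg adjustment). Hapln2, which encodes a link protein of the matrix at nodes of Ranvier, had 40.8, 50.1, 43.0 and 45.1 CPM in SCA1 and 36.6, 42.4, 41.3 and 42.1 CPM in WT mice. Here the groups overlapped through SCA1 mouse 1, and the log2 fold change was 0.14 (SE 0.06, adjusted p = 0.576, edgeR, Benjamini-Hochberg adjustment), which became 0.07 without SCA1 mouse 2.

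The surface and adhesion genes of the sheath did not separate the groups. Mog had 80.1, 98.5, 98.6 and 70.9 CPM in SCA1 and 79.4, 75.5, 73.6 and 85.4 CPM in WT mice. Mag had 235, 287, 265 and 210 CPM in SCA1 and 221, 238, 234 and 260 CPM in WT mice. In both, SCA1 mice 2 and 3 were above all WT mice and SCA1 mouse 4 was below all of them, although that mouse was among the highest for Mbp and Mobp. Cldn11 had a log2 fold change of 0.18 (95% interval 0.00 to 0.36).

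Of the 5 transcription factors, 4 were fitted higher in SCA1. Olig2, which specifies the lineage, had 23.0, 25.6, 21.6 and 21.1 CPM in SCA1 and 18.9, 19.9, 19.3 and 20.7 CPM in WT mice. All SCA1 mice lay above all WT mice, which by itself fixes the two-sided exact permutation p at 0.029, the smallest that 4 against 4 can give. The log2 fold change of 0.21 had an adjusted p of 0.578 by edgeR with Benjamini-Hochberg adjustment. Nkx6-2 also did not overlap, with 16.6 ± 0.105 CPM in SCA1 and 15.2 ± 0.835 CPM in WT mice (SD, n = 4 each). Myrf, the factor that drives sheath genes directly, had a log2 fold change of -0.04.

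Apod was the third member without overlap, with 213 ± 12.3 CPM in SCA1 and 186 ± 10.3 CPM in WT mice (SD, n = 4 each), and a log2 fold change of 0.19. These 3 of 32 members that lay wholly above WT compare with 3.77% of all genes, and 0 members lay wholly below, where 4.99% of all genes did. The 6 enzyme, channel and carrier genes had fits between 0.06 and 0.14. The precursor genes Pdgfra and Cspg4 had log2 fold changes of 0.03 and -0.09, and the 4 genes of committed and newly forming cells had fits between 0.05 and 0.19.

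**Figure D2:**
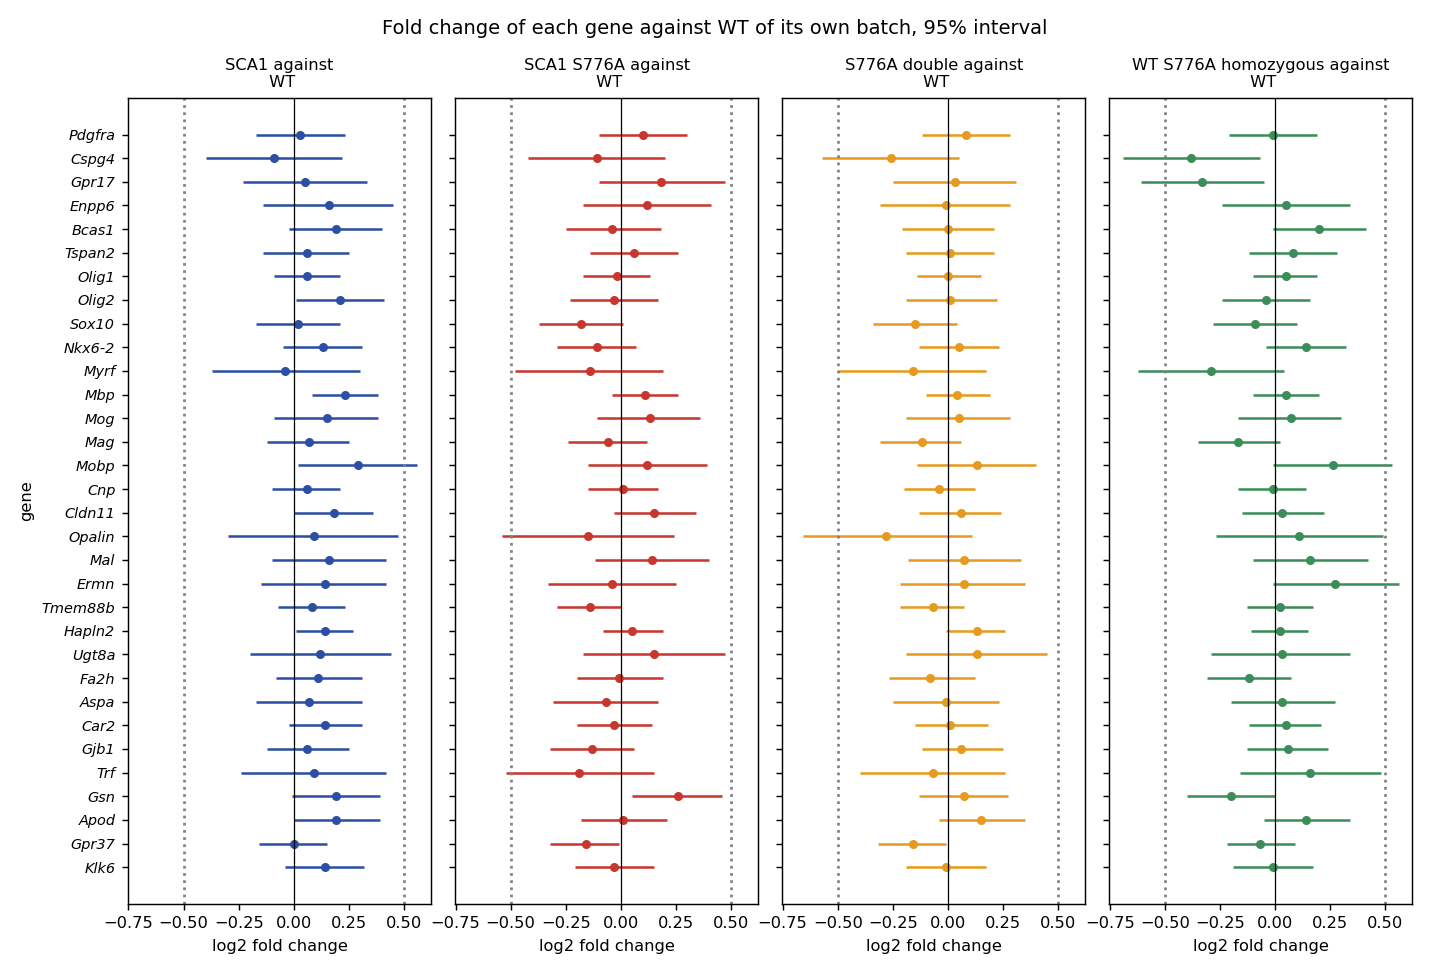
Log2 fold change (points) and 95% interval (lines) of each of the 32 genes, in rows grouped by role, for 4 genotypes against the WT mice of their own batch; dotted lines mark the absolute log2 fold change of 0.5 used for calls. In SCA1 29 of 32 points lie above 0 and none reaches 0.5, and in the other genotypes points lie on both sides.

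Marker genes of other cells also differed between these groups. The 6 Purkinje cell markers were all fitted lower in SCA1 (6 with an unadjusted p under 0.05), with summed levels of 5880 to 6640 CPM against 7860 to 9140 CPM in WT mice. Brainstem neuron markers, which bear on how much neighbouring tissue was taken with the cerebellum, summed to 1.22 to 4.05 CPM in SCA1 and 0.922 to 2.02 CPM in WT mice, and their score was 1.55, 1.03, 1.79 and -0.24 in SCA1 mice 1 to 4. The 8 choroid plexus markers summed to 921 to 5210 CPM in SCA1 and 35.1 to 1770 CPM in WT mice. The 7 microglia markers (91.8 to 106 CPM against 97.1 to 99.1 CPM) and the 6 astrocyte and Bergmann glia markers (2080 to 2540 CPM against 2300 to 2590 CPM) overlapped. The part of these cells in the member values was not tested.

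Upstream sequence from the RefSeq promoter table of GRCm38.p6 was examined for Mobp, Hapln2 and Olig2, 3 of the 4 members with an unadjusted p under 0.05 in SCA1. The stretches of Mobp (chr9:120149492-120149706, plus strand) and Hapln2 (chr3:88027584-88027761, minus strand) run 5′ to 3′ and end at the base before the gene as GENCODE annotates it. They are shown for the letters of the lineage factors they hold. Capitals mark matches, on either strand, to ACAAAG (a core bound by SOX factors), CANNTG (the E-box, bound by factors of the OLIG type) and CTGGCAC (a form of the MYRF core).
Mobp: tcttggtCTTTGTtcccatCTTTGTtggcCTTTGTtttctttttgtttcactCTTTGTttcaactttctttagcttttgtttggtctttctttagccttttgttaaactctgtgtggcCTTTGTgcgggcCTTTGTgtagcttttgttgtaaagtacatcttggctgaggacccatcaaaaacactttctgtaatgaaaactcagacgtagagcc
Hapln2: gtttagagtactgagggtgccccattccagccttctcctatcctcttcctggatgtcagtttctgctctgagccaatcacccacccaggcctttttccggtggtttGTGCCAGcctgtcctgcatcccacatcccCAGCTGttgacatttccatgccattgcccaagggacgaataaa

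The Mobp stretch held 6 matches to the SOX core, all read on the opposite strand. The Hapln2 stretch held 1 E-box and 1 MYRF core, and the window of Olig2 held no match to any of the 3. Over windows of 250 bases before the start, available for 23 members, the SOX core was present in 7 (30.4%, against 16.5% of 32851 promoters), the E-box in 15 (65.2% against 66.2%) and the MYRF core in 3 (13.0% against 4.2%). The motifs do not overlap one another in the stretches shown.

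Mice with alanine on the expanded allele were then compared with WT. In SCA1 S776A mice, 0 of 32 members were called (0.0133% of all genes), 14 were fitted higher (51.2% of all genes) and 18 lower, and the median log2 fold change was -0.02. The scores were -0.06, 0.08, 0.03 and -0.05, between -0.06 and 0.10 as in the WT mice. The 2 members with an unadjusted p under 0.05 (3.93% of all genes) lay on opposite sides. Gsn had 111, 134, 125 and 114 CPM in SCA1 S776A and 103, 89.4, 95.7 and 117 CPM in WT mice, with overlap of the groups and a log2 fold change of 0.26 (SE 0.10, adjusted p = 1 by edgeR with Benjamini-Hochberg adjustment).

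Gpr37, which encodes an orphan receptor of maturing oligodendrocytes, had 60.4, 59.3, 58.6 and 52.0 CPM in SCA1 S776A and 62.3, 66.5, 63.8 and 65.5 CPM in WT mice. All SCA1 S776A mice lay below all WT mice, which by itself fixes the two-sided exact permutation p at 0.029. Gpr37 was the only member without overlap here, and 2.52% of all genes lay below in this way. Its log2 fold change was -0.16 (SE 0.08). Tmem88b, a transmembrane protein gene, had 68.8, 77.2, 71.7 and 64.0 CPM against 70.6, 79.6, 76.7 and 84.7 CPM in WT mice, with overlap and a log2 fold change of -0.14. The next were Sox10 with -0.18, Cldn11 with 0.15 and Mbp with 0.11. Mbp had 3228, 3671, 3458 and 3720 CPM, Mog 83.3, 94.1, 85.0 and 80.3 CPM, and Mag 227, 250, 232 and 205 CPM in these mice, all overlapping WT. All 5 transcription factors were fitted lower, between -0.18 and -0.02, each with an unadjusted p above 0.05.

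In S776A double mice the members lay close to WT as well. None of the 32 was called (0 by edgeR's quasi-likelihood test, against 0.0267% of all genes), 1 had an unadjusted p under 0.05 (6.93% of all genes), 18 were fitted higher (49.8% of all genes), and the median log2 fold change was 0.01. The scores were -0.15, 0.09, -0.01 and 0.02, so mouse 1 lay below the WT range. Gpr37 had 51.5, 63.7, 57.5 and 57.4 CPM and a log2 fold change of -0.16 (SE 0.08, adjusted p = 0.702, edgeR, Benjamini-Hochberg adjustment), with overlap. Cspg4 had 9.06, 10.7, 9.63 and 9.08 CPM against 11.5, 12.0, 10.8 and 11.8 CPM in WT mice and was the only member wholly below WT (3.54% of all genes were), with a log2 fold change of -0.26 (95% interval -0.57 to 0.05).

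Hapln2 had 41.9, 47.1, 41.0 and 47.4 CPM in S776A double mice, with a log2 fold change of 0.13 and overlap. Sox10, Apod and Opalin, the next by p, had log2 fold changes of -0.15, 0.15 and -0.28. Opalin, a sialylated protein of the paranodal loops, varied most between mice of a group of all members, and S776A double mouse 1 had 10.1 CPM where mice 2 to 4 had 19.3, 18.0 and 14.0. Mbp had 3065, 3640, 3315 and 3443 CPM, Mog 74.4, 81.3, 76.9 and 91.8 CPM, and Mag 204, 234, 204 and 233 CPM in S776A double mice, each overlapping WT. For Mag, 2 of these mice lay below all WT mice.

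**Figure D3:**
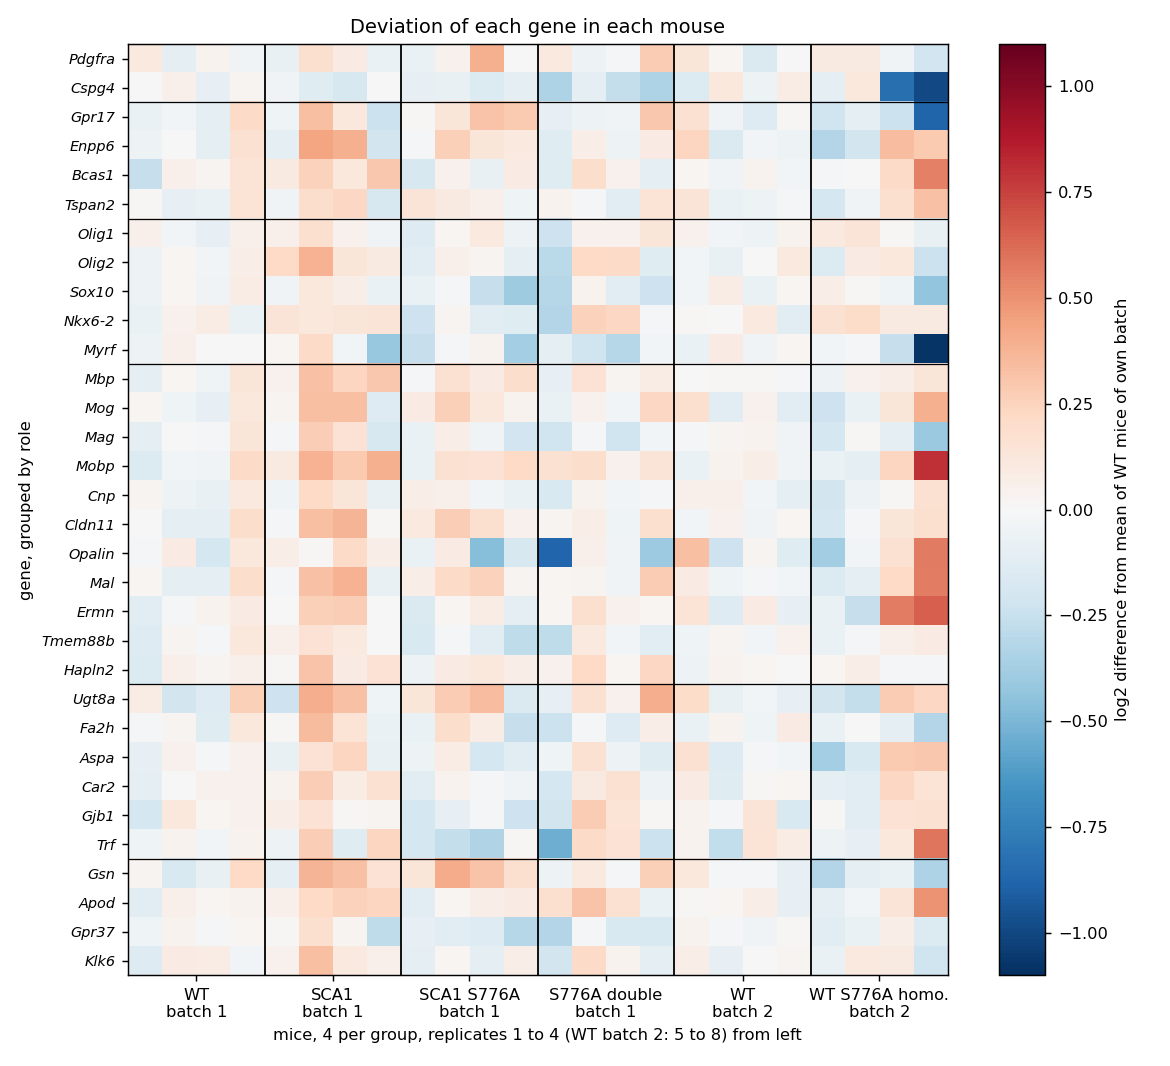
Log2 difference of each of the 32 genes (rows, grouped by role) from the mean of the WT mice of the same batch, for each of 24 mice (columns, 4 per group); red is higher and blue is lower. SCA1 mice 2 and 3 are red across most rows, and WT S776A homozygous mouse 4 has the deepest blue cells, Myrf at -1.08 and Cspg4 at -0.99, beside red cells such as Mobp at 0.80.

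The S776A change was also compared directly with SCA1. Both of these comparisons use the same 4 SCA1 mice, which also entered the comparison with WT, so the 3 sets of values are not separate evidence. In SCA1 S776A against SCA1 mice, 0 of 32 members were called (0.00444% of all genes), 5 were fitted higher (50.1% of all genes) and 27 lower, and the median log2 fold change was -0.12 against 0 over all genes. At an unadjusted p under 0.05 there were 8 members, all lower, where 1.89% of all genes were. The lowest p was that of Tmem88b, with 68.8, 77.2, 71.7 and 64.0 CPM in SCA1 S776A against 81.3, 86.7, 83.7 and 77.6 CPM in SCA1 mice and a log2 fold change of -0.22 (SE 0.07, unadjusted p = 0.00475, adjusted p = 0.917, edgeR, Benjamini-Hochberg adjustment).

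Nkx6-2 had 13.0, 15.5, 14.0 and 13.8 CPM in SCA1 S776A against 16.7, 16.5, 16.6 and 16.7 CPM in SCA1 mice, with a log2 fold change of -0.24. Olig2 had 18.2, 20.5, 20.1 and 18.4 CPM in SCA1 S776A mice, against the SCA1 values given above, and a log2 fold change of -0.24. These 3 genes, Gjb1 (-0.20) and Bcas1 (-0.22) lay wholly below SCA1 (two-sided exact permutation test, p = 0.029 for each), 5 members where 1.68% of all genes did. Car2, with -0.17, overlapped. Without SCA1 mouse 2 the median over the members was -0.06.

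In S776A double against SCA1 mice, 0 of 32 members were called (0% of all genes, edgeR's quasi-likelihood test), 3 were fitted higher (50.4% of all genes) and 29 lower, and the median log2 fold change was -0.12. At an unadjusted p under 0.05 there were 4, all lower (1.96% of all genes). Mbp had the lowest p, with a log2 fold change of -0.18 (SE 0.07, adjusted p = 1, edgeR, Benjamini-Hochberg adjustment). Tmem88b had 64.2, 84.1, 76.0 and 71.7 CPM in S776A double mice and a log2 fold change of -0.15. Gpr37 (-0.16), Mag (-0.19), Fa2h (-0.19) and Olig2 (-0.19) were next. For every member the mice of the 2 genotypes overlapped, while 1.57% of all genes lay wholly higher and 1.12% wholly lower. The median was -0.06 without SCA1 mouse 2 and -0.07 without S776A double mouse 1.

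Markers of other cells also differed from SCA1 in these comparisons. The 6 Purkinje cell markers were all fitted higher in SCA1 S776A (median log2 fold change 0.19) and in S776A double mice (median 0.21), 4 of them with an unadjusted p under 0.05 in each. The 5 tested brainstem neuron markers had medians of -1.12 and -0.86, with summed levels of 1.47 to 4.28 CPM in SCA1 S776A and 1.15 to 2.29 CPM in S776A double mice. The 8 choroid plexus markers were all fitted lower in both, with medians of -0.25 and -0.81. Of the 4 tested Schwann cell markers, 4 were fitted lower in SCA1 S776A and 3 in S776A double mice, with medians of -0.26 and -0.22, and their list summed to 2.69 to 3.11 CPM, 3.08 to 4.28 CPM and, in SCA1 mice, 3.04 to 5.49 CPM. Their part in the member values was not tested.

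S776A double and SCA1 S776A mice differ by alanine on the unexpanded allele. Between them 0 of 32 members were called (0% of all genes, edgeR's quasi-likelihood test), 1 had an unadjusted p under 0.05 (2.96% of all genes), and the median log2 fold change was -0.01. That member was Gjb1, with 20.6, 28.6, 26.2 and 23.8 CPM in S776A double against 20.8, 22.3, 23.4 and 20.2 CPM in SCA1 S776A mice and a log2 fold change of 0.20 (95% interval 0.01 to 0.38). Gsn was next by p, with 96.7, 109, 100 and 121 CPM in S776A double mice and a log2 fold change of -0.18. Nkx6-2 had 12.2, 18.1, 17.8 and 14.9 CPM in S776A double mice and a log2 fold change of 0.16. These 3 genes overlapped between the genotypes, as did Apod (0.14), Gpr17 (-0.16) and Hapln2 (0.07).

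The interaction asked whether that difference was unlike the one between WT S776A homozygous and WT mice, which carry no expanded allele. It called 0 members (0% of all genes, edgeR's quasi-likelihood test), 0 had an unadjusted p under 0.05, where 2.88% of all genes did, and the median over the members was 0. Mobp had the lowest p, with an interaction of -0.25 on the log2 scale (95% interval -0.63 to 0.13). It had 943, 954, 866 and 923 CPM in S776A double and 797, 940, 936 and 976 CPM in SCA1 S776A mice, and its values in homozygous and WT mice of batch 2 follow. Mal (-0.22), Myrf (0.27), Bcas1 (-0.17), Mbp (-0.11) and Gjb1 (0.14) followed. Without homozygous mouse 4 the interaction was -0.02 for Mobp, -0.06 for Mal and 0.08 for Myrf, and on leaving out other mice it reached -0.34, -0.30 and 0.38. The intervals of single members reached from -0.78 to 0.74.

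WT S776A homozygous mice showed whether the alanine alone moved these genes. No member was called (0% of all genes, edgeR's quasi-likelihood test), 20 were fitted higher (53.3% of all genes), and the median log2 fold change was 0.03. The 3 members with an unadjusted p under 0.05 were all lower, where 3.41% of all genes were. Cspg4 had 9.18, 10.7, 5.54 and 4.96 CPM in homozygous mice 1 to 4 and 8.93, 10.8, 9.50 and 10.5 CPM in the WT mice of batch 2. Mice 3 and 4 lay far below WT and mice 1 and 2 inside its range, with a log2 fold change of -0.38 (SE 0.15, adjusted p = 0.485, edgeR, Benjamini-Hochberg adjustment) that was -0.23 without mouse 4 and -0.60 without mouse 2.

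Gpr17 had 27.1, 29.6, 26.9 and 17.3 CPM in homozygous and 35.6, 30.9, 28.8 and 31.8 CPM in WT mice. Its log2 fold change was -0.33 (SE 0.14), or -0.19 without mouse 4. Gsn had 145, 168, 172 and 143 CPM in homozygous and 196, 179, 178 and 169 CPM in WT mice, with a log2 fold change of -0.20. Mobp had 1095, 1075, 1363 and 1997 CPM in homozygous mice, so mouse 4 stood far above the WT mice of batch 2, which had 1095, 1180, 1209 and 1122 CPM. The fits of Mobp, Bcas1 and Ermn were 0.26, 0.20 and 0.27. Mbp had 3891, 4172, 4245 and 4436 CPM against 4042, 4076, 4083 and 3977 CPM in WT, Mog 127, 141, 163 and 195 CPM against 169, 136, 154 and 137 CPM, and Mag 311, 357, 328 and 267 CPM against 348, 360, 364 and 343 CPM. All 3 overlapped between the groups.

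Homozygous mice 3 and 4 stood apart within their group. Their precursor scores, the mean of Pdgfra and Cspg4, were -0.43 and -0.60 while their sheath scores were 0.13 and 0.29. Most of the precursor score came from Cspg4, at -0.83 and -0.99 from the WT mean, whereas Pdgfra lay at -0.04 and -0.21. The score of the meninges and fibroblast markers was -0.51 and -0.65 in mice 3 and 4, and -0.15 and 0.04 in mice 1 and 2. The part of those cells in the Cspg4 values was not tested. In mouse 4, Myrf was 1.08 below the WT mean on the log2 scale (28.2 CPM, where the WT mice had 56.7, 63.5, 58.0 and 60.3), and Ermn, a cytoskeletal protein gene of mature cells, was 0.66 above it. These differences moved with the base composition of the transcripts. Over the 32 members, whose transcripts ranged from 38.0% GC (Ugt8a) to 64.3% GC (Nkx6-2), the Spearman correlation of the deviation with GC content was -0.70 in mouse 3 and -0.63 in mouse 4, and 0.44 and 0.60 in mice 1 and 2, as a description across genes that share libraries.

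The same correlation over 10689 genes of higher expression was -0.64 and -0.59 in mice 3 and 4, and 0.15 and 0.51 in mice 1 and 2. WT mice of batch 2 also differed in it, with -0.61 and 0.53 over the members in WT mice 5 and 6. In mouse 4, 14 of the 16 members of lower GC content were above the WT mean and 5 of the 16 of higher GC content were. Mitochondrial genes took 6.73% of the fragments in mouse 4 and 3.35% to 4.38% in the WT mice of batch 2. The part of base composition and of RNA quality in these values was not tested. In batch 1 the correlation over the members lay between -0.48 (SCA1 mouse 3) and 0.25 (SCA1 mouse 1). Over the 10689 genes it was -0.24, -0.21, -0.52 and -0.07 in SCA1 mice 1 to 4. It was 0.26, 0.14, -0.25 and -0.17 in the WT mice of batch 1. The range was -0.42 to -0.08 in SCA1 S776A and -0.56 to -0.18 in S776A double mice. In SCA1 mouse 2 the members of lower and higher GC content lay 0.25 and 0.24 above WT. In SCA1 mouse 3 they lay 0.23 and 0.09 above it.

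**Figure D4:**
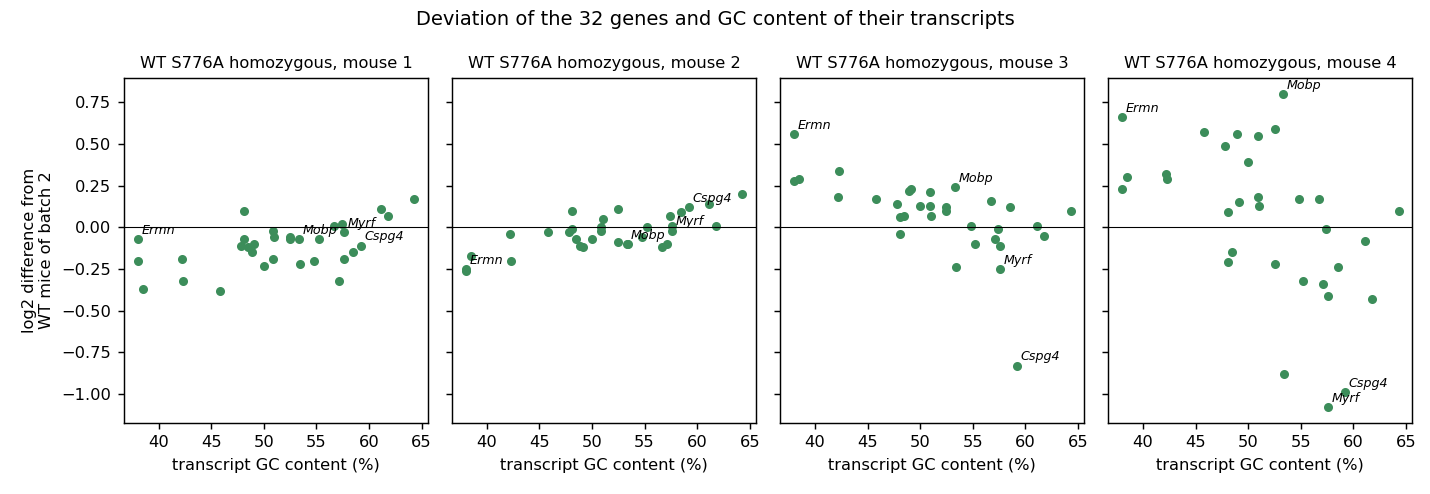
Log2 difference of each of the 32 genes (points) from the WT mice of batch 2 against the GC content of its longest transcript in percent, in each of the 4 WT S776A homozygous mice (panels). The points fall with GC content in mice 3 and 4 (Spearman rho -0.70 and -0.63) and rise with it in mice 1 and 2 (0.44 and 0.60).

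By the number of members called and by the median, the largest difference was the one between the WT mice of the 2 batches. In batch 1 relative to batch 2, 14 of 32 members were called lower and 0 higher, where 3.08% of all genes were called lower and 14.5% higher (edgeR, Benjamini-Hochberg adjustment). With no fold threshold 28 members, all lower, had an adjusted p under 0.05 (45% of all genes, same test). The median log2 fold change over the members was -0.47, against 0 over all genes. The mice of the batches did not overlap for 30 members, 29 lower and 1 (Cspg4) higher, where 22.9% and 23.8% of all genes lay lower and higher in this way. The members took 0.635% to 0.750% of the fragments on genes in WT mice of batch 1 and 0.869% to 0.908% in those of batch 2.

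The called members came from most roles. Of the sheath genes, 7 of 11 were called. Cldn11 had 170, 158, 159 and 194 CPM in batch 1 and 294, 310, 293 and 304 CPM in batch 2, with a log2 fold change of -0.82 (SE 0.09, adjusted p = 1.1e-07, edgeR, Benjamini-Hochberg adjustment). Tmem88b had 115, 122, 117 and 123 CPM in batch 2 and a log2 fold change of -0.61. The other called sheath genes were Mog (-0.93), Mal (-0.81), Ermn (-0.78), Cnp (-0.65) and Mag (-0.57), while Mbp had -0.31 and Hapln2 -0.06.

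Of the enzyme, channel and carrier genes, Ugt8a (-1.04) and Gjb1 (-0.65) were called. Gsn (-0.83), Klk6 (-0.58) and Gpr37 (-0.51) were called among the remaining genes of mature cells, and Enpp6 (-0.74) and Tspan2 (-0.70) among those of committed and newly forming cells. No transcription factor was called, although all 5 lay wholly lower in batch 1. The precursor genes had log2 fold changes of 0.09 for Pdgfra (95% interval -0.11 to 0.29) and 0.22 for Cspg4 (95% interval -0.09 to 0.52), and were not called.

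**Figure D5:**
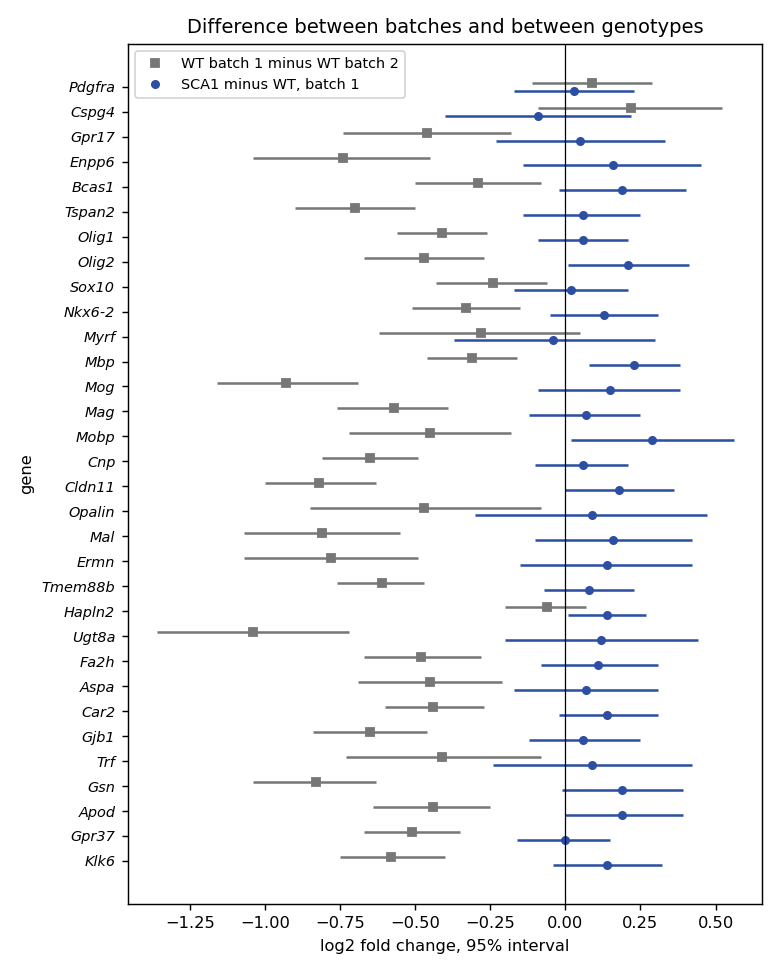
Log2 fold change and 95% interval of each of the 32 genes (rows) between WT mice of batch 1 and batch 2 (grey squares) and between SCA1 and WT mice within batch 1 (blue circles). The squares reach -1.04 (Ugt8a) and 30 of 32 lie below 0, whereas the circles lie between -0.09 and 0.29.

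Several measures moved with the batches. The share of fragments in no annotated gene was 9.83% to 11.5% in the WT mice of batch 1 and 5.23% to 6.31% in those of batch 2. Granule cell markers summed to 4510 to 4770 CPM in batch 1 and 5380 to 5580 CPM in batch 2, and microglia markers to 97.1 to 99.1 CPM and 110 to 120 CPM. Endothelium and pericyte markers summed to 171 to 204 CPM in batch 1 and 247 to 307 CPM in batch 2, with a median log2 fold change of -0.54 and 2 of 6 called lower. Meninges and fibroblast markers lay the other way, with 209 to 218 CPM in batch 1 and 116 to 134 CPM in batch 2, and 2 of 6 were called higher. Over the members, the correlation of the batch difference with transcript GC content was 0.42 (Spearman, n = 32 genes), and it was 0.12 over 10689 genes. Library handling and any difference between the cohorts of mice cannot be told apart here.

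A further 37 genes of oligodendrocytes were examined beside the members. Against WT, 0 of 37 were called in any genotype. The median log2 fold changes were 0.07 in SCA1, -0.04 in SCA1 S776A, -0.03 in S776A double and -0.05 in WT S776A homozygous mice. In the same order, 0.173%, 0.0133%, 0.0267% and 0% of all genes were called. At an unadjusted p under 0.05 in edgeR's quasi-likelihood test there were 2 in SCA1 (8.25% of all genes), 4 in SCA1 S776A (3.93%), 2 in S776A double (6.93%) and 3 in WT S776A homozygous mice (9.98%), all of them lower in the last 3 genotypes. In SCA1 these were Adamts4, which encodes a metalloprotease, with -0.23, and Cd82, which encodes a tetraspanin, with 0.32. Galnt6 (-0.29) and Efnb3 (-0.21) had the lowest p in SCA1 S776A, Efnb3 (-0.25) and Adamts4 (-0.23) in S776A double, and Adamts4 (-0.24) and Tnr (-0.24) in WT S776A homozygous mice.

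Relative to SCA1 mice, the medians of the 37 genes were -0.10 in SCA1 S776A and -0.09 in S776A double mice. In the same order, 0 and 0 were called (0.00444% and 0% of all genes). Fitted higher were 8 and 3 (50.1% and 50.4% of all genes), and 29 and 34 were lower. At an unadjusted p under 0.05 (edgeR) there were 7 and 6, all lower (1.89% and 1.96% of all genes). Wholly below SCA1 lay 5 and 0 (1.68% and 1.12%). The lowest p in SCA1 S776A was that of Galnt6 with a log2 fold change of -0.37 (adjusted p = 0.676, edgeR, Benjamini-Hochberg adjustment), followed by S1pr5 with -0.18. In S776A double mice they were those of Efnb3 (-0.26) and Galnt6 (-0.28). Plekhb1 (0.11) and S1pr5 (0.09) had the lowest between S776A double and SCA1 S776A mice, and Tmem63a (0.22) and Tnr (0.25) in the interaction. Between WT mice of batch 1 and batch 2, 6 of 37 were called, all lower in batch 1, where 3.08% of all genes were. Among them were Gal3st1 (-0.73), Zfp488 (-0.65), Pllp (-0.58) and Anln (-0.53).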

How the data were processed

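Total RNA of 24 cerebella was sequenced by a commercial provider. The authors trimmed reads (Trimmomatic 0.36), aligned them to GRCm38.p6 (STAR 2.7.2d) and deposited fragment counts per gene, without normalization and before their batch correction. The unstranded counts were used, since the strand totals had a ratio of 0.9995 to 1.0035. Between 18.8% and 25.4% of fragments fell on no single gene and were left out. Of 54232 gene identifiers 54079 matched GENCODE M21 without version, and 1 further feature and a few genes are not reported here. Differences between mice of a genotype exceeded counting error. The labels do not say whether mice shared a litter, so p-values measure the spread between these mice. For each gene this spread was estimated over all 24 mice, so mice outside a comparison also entered its SE and p. Mobp, Cspg4 and Myrf varied widely among WT S776A homozygous mice (SD 430, 2.8 and 14.3 CPM, n = 4).

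Batches were inferred by k-means (k = 2, 50 starts) on shares of unmapped, multimapping, no-feature and ambiguous fragments (silhouette 0.634). A split on the 500 genes most variable among the WT mice placed 24 mice alike. Those WT mice came from both inferred batches, so the choice of genes favours the same split and is not an independent check. Counts were normalized by TMM and tested with edgeR 4.0.16 (R 4.3.3) by the robust quasi-likelihood test on genotype-by-batch groups of all mice, with Benjamini-Hochberg adjustment over 22502 genes and the study's thresholds (0.01 and 0.5). Scores used log2 CPM with a prior count of 2. The members, their roles and all lists were chosen with earlier results of these data known. Each comparison names members called, members without overlap and up to 6 with the lowest p, with values in every mouse for up to 3 and for Mbp, Mog and Mag. The relation to GC content was examined after the values were seen. On simulated data for SCA1 against WT (22253 genes tested), 0% of genes changed by 0.3 on the log2 scale (under the fold threshold) were called, 72% at 0.6 and 100% at 1, with 1 unchanged gene called. Alternatives were other handling of the batch, DESeq2 1.42.0, ComBat-seq of sva 3.50.0, other size factors, filters and thresholds, and leaving out each mouse.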

Additional observations from a re-analysis of the deposited data

Results flagged for a closer look

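Among 240 groups of 4 mice examined (each member, the score, the role scores and the score of the other oligodendrocyte genes), 3 held a mouse far from the other mice of its group, and chance flags about 1 in 20 groups. Gpr17 in S776A double mouse 4 was 4.83 on the log2 CPM scale, where the other mice lay between 4.43 and 4.48. Ermn in S776A double mouse 2 was 5.94, with the others between 5.78 and 5.80. Apod in SCA1 mouse 1 was 7.60, below the others at 7.76 to 7.79.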

How the results depend on the processing

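The count of members called was 0 in the 8 genotype comparisons under all alternatives run, leaving out each mouse included. For Mbp in SCA1 the adjusted p alone passed 0.01 by ComBat-seq and DESeq2 (0.00713, fold change 0.23). Setting genotypes against the WT mice of both batches moved the medians over members: with no batch covariate they were -0.18 in SCA1, -0.30 in SCA1 S776A, -0.30 in S776A double, 0.26 in WT S776A homozygous mice and -0.22 in the interaction, and Gsn turned to -0.22 in SCA1 S776A and to 0.15 in WT S776A homozygous mice. The scores against all 8 WT mice were -0.14 in SCA1, -0.25 in SCA1 S776A, -0.26 in S776A double and 0.24 in WT S776A homozygous mice. By construction these settings mix the batch difference into the genotype. Between WT mice of the batches, 28 members passed an adjusted p of 0.05 with no fold threshold, and 13 to 17 were called on leaving out a mouse. The other alternatives changed no call and moved medians and scores by less than the spread between mice. On leaving out a mouse, the median in SCA1 ranged from 0.04 to 0.14. Mice of 1 batch, ComBat-seq and the fit without batch could not give the batch comparison, and the first could not give the interaction. Members changed by less than 0.5 on the log2 scale could not be called by the thresholds used. No paired analysis was possible because replicate numbers were given in accession order and pair no mice.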
